A study of Mus musculus with 6 samples.

Results

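Genes that license, fire and copy replication origins were compared between WT and hnRNPL-deficient activated B cells. The 51 genes were chosen by symbol among the 55421 genes of the deposited table, from their known parts in DNA replication. hnRNPL is an RNA-binding protein known as a regulator of splicing. WT mice carried CD21-cre alone, hnRNPL-deficient mice (KO in the plots) carried hnRNPL F/F together with CD21-cre, and per the study's methods both carried the Rosa mT/mG reporter. Splenic B cells of 3 mice per genotype, 1 library each, were activated with 5 μg/ml LPS and 5 ng/ml IL-4 for 24 h and sorted as GFP+, and the mRNA was sequenced. The CD21-cre driver acts in mature B cells, and GFP reports that Cre was active rather than that hnRNPL protein was gone. The sex and age of each mouse were not given in the sources used here.

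Before S phase, the origin recognition complex, CDC6 and CDT1 load the MCM helicase onto origins, which licenses them, and geminin keeps CDT1 in check. CDC7 with its activator DBF4 then prepares the loaded MCM for CDC45 and GINS, which complete the active helicase, and MCM10 is needed for it to start. DNA polymerase α with primase lays down primers, which polymerases δ and ε extend while held by the PCNA clamp that the RFC complex loads, and chromatin assembly and maintenance methylation follow the fork. A resting B cell holds little of this machinery and builds it up as it is activated to divide.

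The libraries held from 40395186 to 75180749 reads on genes, and hnRNPL-deficient library 3 was the shallowest. *Hnrnpl* itself (chromosome 7, 28808541 to 28822266 in GRCm38) was at 24371, 25579.7 and 24174 normalized counts in WT libraries 1, 2 and 3 and at 2178, 1519 and 1297 in hnRNPL-deficient libraries 1, 2 and 3 (log2 fold change -3.93 ± 0.173 SE, limma adjusted p = 2.23e-05). A normalized count is a read count divided by the size factor of its library. The 7 B cell markers *Cd79a*, *Cd79b*, *Ms4a1*, *Cd22*, *Blnk*, *Pax5* and *Ebf1* summed to 281781 to 366229 normalized counts in WT and 268880 to 324192 in hnRNPL-deficient libraries, with *Pax5* as the largest term. Among them *Cd22* (log2 fold change -0.55, adjusted p = 0.00987 from limma) and *Ms4a1* (-0.40, adjusted p = 0.0988) passed the adjusted p at under 1.5-fold, and *Cd79a* and *Cd79b* were at 0.27 and 0.31 (adjusted p = 0.192 and 0.235). Of 8 T cell, 8 myeloid, 6 NK cell and 5 erythroid markers, 5, 5, 4 and 3 stayed under 10 normalized counts in every library, among them *Cd3e*, *Lyz2*, *Ncr1* and *Alas2*. The myeloid sum was 605 to 741 in WT and 1662 to 1808 in hnRNPL-deficient libraries, of which *Adgre1* made 236 to 315 and 1217 to 1369, while the granulocyte genes *S100a8* and *S100a9* were listed at 0 in every library. The erythroid sum was 17.6 to 38.3 against 55.0 to 84.8, the NK cell sum 26.8 to 39.5 against 46.4 to 90.2 and the T cell sum 1067 to 1196 against 743 to 1144. In these lists *Adgre1* (log2 fold change 2.24, limma adjusted p = 0.000139), *Hbb-bt* (1.82, adjusted p = 0.0235) and *Prf1* (0.89, adjusted p = 0.0884) were called higher. *Cd8b1* (-1.84, adjusted p = 0.0405 from limma) was called lower. The part of these markers in the results was not tested.

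The replication genes were lower in hnRNPL-deficient cells as a group and by modest amounts. All 51 passed the filter of a mean of at least 10 normalized counts, with means from 453 (*Gmnn*) to 23904 (*Uhrf1*). The mean on the log2 scale was lower in hnRNPL-deficient cells for 49 of 51, the exceptions being *Orc4* and *Orc5*, against 52.7% of the 17640 genes tested. The median log2 fold change was -0.49, against -0.03 over all genes tested. Among the 9218 tested genes at least as abundant as *Gmnn*, 58.2% had a lower mean and the median was -0.06. Log2 fold changes are hnRNPL-deficient minus WT on the log2(normalized count + 1) scale. In bulk RNA, fewer cells in S phase and less RNA per cell cannot be told apart.

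Calls were made with limma at a Benjamini-Hochberg adjusted p under 0.1 over all genes and at least a 1.5-fold change. By this rule 10 of the 51 replication genes fell (19.6%), where 4.08% of all genes tested were called lower and 4.11% of the 9218 genes at least as abundant as the least abundant of the 51. None was called higher, where 7.28% of all genes and 372 of the 9218 were. From limma, 0 also had a log2 fold change above 0 at an unadjusted p under 0.05. On the recovered reads of 5 libraries without hnRNPL-deficient library 2, edgeR and DESeq2 called 0 higher and 15 lower each, all 10 among them. They called 3.83% of 18455 and 2.41% of 30859 genes lower, totals that include genes not tested in the main fit. Without that library limma also called 15 of the 51 lower, 9 of the 10 among them, and 3.84% of all genes. The 10 genes were *Orc1*, *Cdc6* and *Gmnn* of licensing, *Mcm5* of the helicase, *Mcm10*, *Gins1* and *Gins2* of origin firing, *Rfc2* of the clamp loader, and *Chaf1b* and *Uhrf1*, which act on chromatin behind the fork. A further 12 passed the adjusted p with a change under 1.5-fold, so 22 of 51 passed it at any fold. At that threshold 7.97% of all genes and 1043 of the 9218 genes were lower. The remaining 29 did not pass in this fit, which did not pair the mice by replicate number. The 3 hnRNPL-deficient values lay below all 3 WT values for 34 of 51 genes (66.7%), and the groups overlapped for 17. The share with all 3 below was 16.3% of all genes and 21.4% of the 9218 genes.

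**Figure D1:**
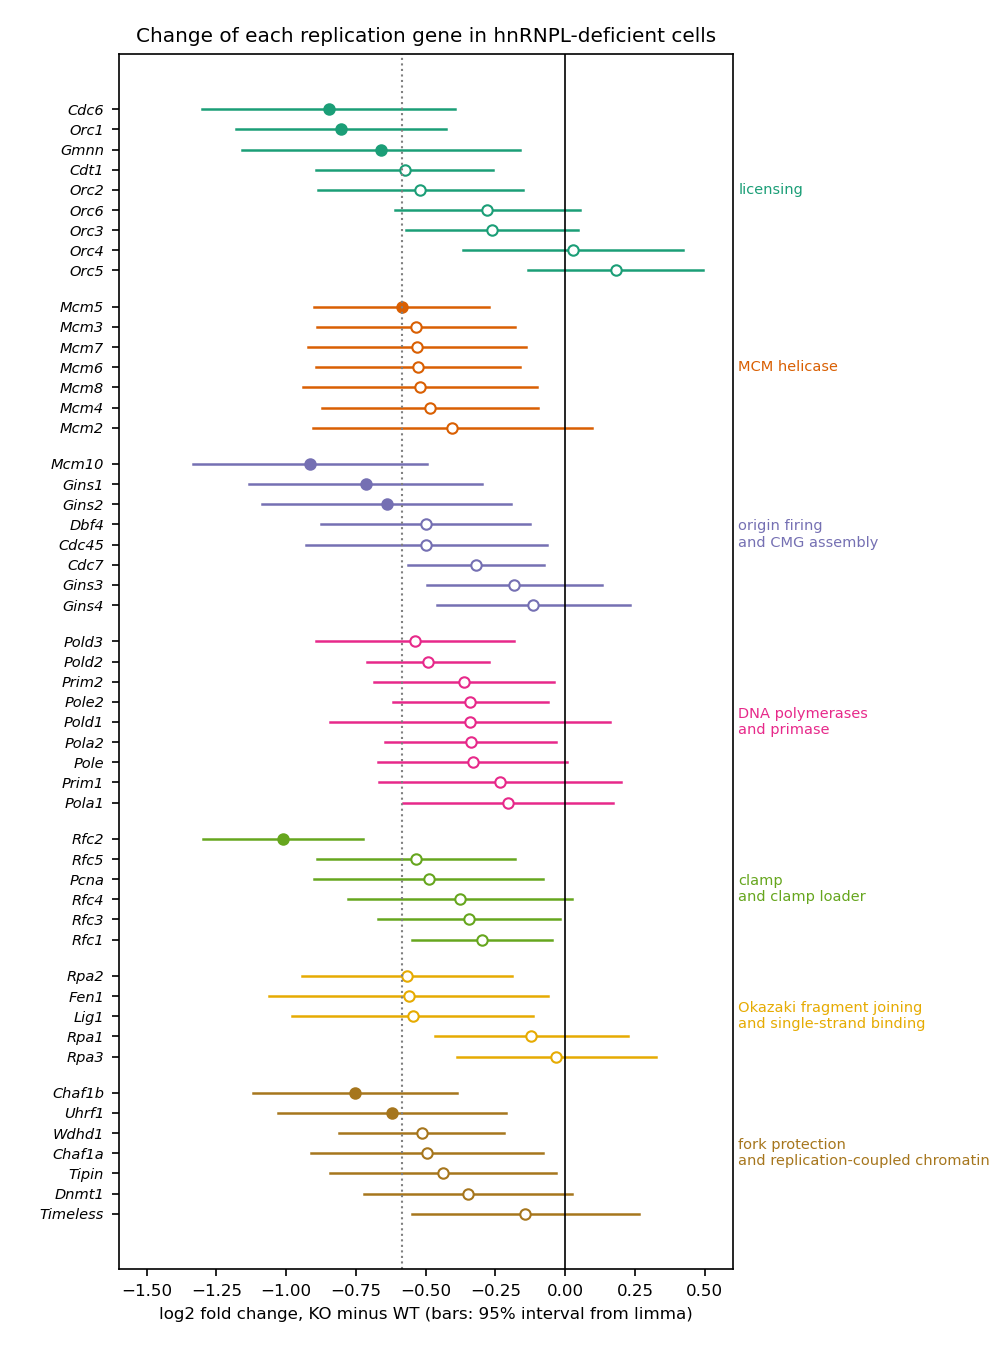
Log2 fold change (hnRNPL-deficient, KO, minus WT; horizontal axis) of each of the 51 genes, grouped by role, with 95% intervals from limma as bars, n = 3 libraries per group. Filled points passed the call, the dotted line marks a 1.5-fold fall, and the 10 filled points lie in 5 of the 7 role groups.

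As most of the genes had lower means, their promoters were searched for words that transcription factors of the cell cycle are known to bind. RefSeq promoter windows on GRCm38.p6, from 250 bases before to 50 bases after each gene start, were matched by symbol for 42 of the 51 genes. The E2F word was searched as TTTCCCGC, TTTCGCGC, TTTGCCGC or TTTGGCGC, the NF-Y word as CCAAT and the E-box, bound by MYC and other factors, as CACGTG, all on both strands. An E2F word was found for 18 of the 42 genes (42.9%), against 4.84% of the 9785 tested genes with a window. Of 32 other replication genes, described further below, 26 had a window and 8 of these (30.8%) an E2F word. Counted by window, it was in 33.3% of the 54 windows of the replication genes. It was in 4.05% of the windows of tested genes and in 2.26% of all 32851 promoter windows, which include genes not tested here. A CCAAT word was found for 25 (59.5%, against 43.6% of tested genes) and a CACGTG word for 8 of the 42 (19.0%), against 1170 of the 9785 tested genes. By window, CCAAT was in 53.7% of those of the replication genes, 38.5% of those of tested genes and 37.4% of all. CACGTG was in 14.8%, 10.2% and 7.15% in the same order. The windows of the replication genes had a median GC content of 62.3%, those of tested genes 60.3%. A match is a description of the letters, not a site in use.

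The 18 genes with an E2F word had a median log2 fold change of -0.53, with 4 called lower, and the 24 without one a median of -0.45, with 2 called lower. The ranges overlapped, from -0.85 to -0.18 with the word and from -0.91 to 0.18 without it. The split was not tested. The sequences that follow let promoters with and without these words be set side by side. They are the 150 bases before the RefSeq start nearest to the annotated gene start, 5′ to 3′ on the strand of the gene, for 5 genes that fell and for *Orc4*, which had the smallest change. Capitals mark E2F and CCAAT words on either strand, which overlap in none of them.
Orc1 (chr4:108579304-108579453, + strand): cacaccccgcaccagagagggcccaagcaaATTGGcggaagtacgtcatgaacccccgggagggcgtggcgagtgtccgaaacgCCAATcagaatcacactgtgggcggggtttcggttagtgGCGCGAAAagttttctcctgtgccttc
Cdc6 (chr11:98908001-98908150, + strand): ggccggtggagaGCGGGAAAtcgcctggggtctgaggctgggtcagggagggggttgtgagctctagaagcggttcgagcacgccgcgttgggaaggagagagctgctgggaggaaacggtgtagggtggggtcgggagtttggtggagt
Mcm5 (chr8:75109359-75109508, + strand): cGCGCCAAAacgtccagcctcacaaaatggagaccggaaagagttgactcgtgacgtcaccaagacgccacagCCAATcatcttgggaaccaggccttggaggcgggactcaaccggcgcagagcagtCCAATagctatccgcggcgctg
Mcm10 (chr2:5012792-5012941, - strand): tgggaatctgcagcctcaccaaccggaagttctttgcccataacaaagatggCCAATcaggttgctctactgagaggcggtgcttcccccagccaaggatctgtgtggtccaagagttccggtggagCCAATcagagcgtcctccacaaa
Chaf1b (chr16:93883751-93883900, + strand): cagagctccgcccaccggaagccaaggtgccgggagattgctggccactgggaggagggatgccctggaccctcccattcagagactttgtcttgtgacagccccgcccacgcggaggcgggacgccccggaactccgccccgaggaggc
Orc4 (chr2:48950235-48950384, - strand): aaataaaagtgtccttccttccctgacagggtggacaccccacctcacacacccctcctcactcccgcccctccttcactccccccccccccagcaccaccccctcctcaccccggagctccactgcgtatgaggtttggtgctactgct

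*Orc1* and *Mcm5* hold 1 E2F word and 2 CCAAT words each in these stretches, and *Cdc6* holds 1 E2F word and no CCAAT word. *Mcm10* has 2 CCAAT words and no E2F word, and *Chaf1b* and *Orc4* have neither here. For *Orc4* a CCAAT word was found in the searched windows outside the printed stretch, and for *Chaf1b* none was. The same stretch of *Rpa3*, which had the next smallest change and is not printed, has 2 CCAAT words and no E2F word. *Mcm10* and *Chaf1b* had larger falls than *Mcm5*. For *Uhrf1*, also not printed, the E2F word was in another of its annotated windows, not in the one nearest to the gene start. Its stretch nearest to the gene start has 1 CCAAT word. The genes with no entry by symbol were *Rfc2*, *Gins1*, *Gins2*, *Gmnn*, *Gins4*, *Mcm4*, *Pole*, *Prim2* and *Tipin*.

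The largest fall among the 51 genes was that of *Rfc2*, a small subunit of the clamp loader. *Rfc2* (chromosome 5, 134581366 to 134601805 in GRCm38) had 4333, 3974 and 3724 normalized counts in WT and 2156, 2154 and 1690.0 in hnRNPL-deficient libraries, given throughout in the order of libraries 1, 2 and 3. Every hnRNPL-deficient value was thus far under the lowest WT value, and the spread within each group was small. The hnRNPL-deficient mean of 1999.7 ± 268 was 50.1% below the WT mean of 4010.5 ± 306 (SD, n = 3), a log2 fold change of -1.01 and an SE of 0.126 (limma adjusted p = 0.00248). *Mcm10*, which helps to activate the loaded helicase (chromosome 2, 4989714 to 5012791), followed with 3824, 3666 and 3397 in WT and 2213, 2298 and 1397 in hnRNPL-deficient libraries. The *Mcm10* groups did not overlap, although hnRNPL-deficient library 3 lay well below the other two (log2 fold change -0.91 ± 0.184 SE, limma adjusted p = 0.0173). 

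Among the 9 licensing genes, *Cdc6*, *Orc1* and *Gmnn* fell, and the subunits of the origin recognition complex differed widely. *Cdc6*, the ATPase that joins ORC to load MCM (chromosome 11, 98907801 to 98923940), was at 4684, 3497 and 3441 normalized counts in WT and 2590.1, 2352 and 1584 in hnRNPL-deficient libraries, 43.8% lower in the mean (log2 fold change -0.85 ± 0.198 SE, limma adjusted p = 0.0301). *Orc1*, the ORC subunit whose level follows the cell cycle (chromosome 4, 108579423 to 108614833), was at 3304, 2666 and 2326 in WT and 1763, 1686 and 1298 in hnRNPL-deficient libraries (log2 fold change -0.80 ± 0.165 SE, limma adjusted p = 0.0188). Both genes had 3 hnRNPL-deficient values below the lowest WT value. *Gmnn*, the gene of geminin (chromosome 13, 24751845 to 24761923), was the least abundant of the 51, with 567, 627 and 459.6 in WT and 345, 452 and 265 in hnRNPL-deficient libraries. Its groups came close, with 452 as the highest hnRNPL-deficient and 459.6 as the lowest WT value, and its log2 fold change of -0.66 had an adjusted p of 0.0913 from limma. 

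*Cdt1*, the loading factor that geminin binds, was just under the 1.5-fold minimum, at 2305, 2738 and 2406 in WT and 1757, 1885 and 1386 in hnRNPL-deficient libraries (log2 fold change -0.58, adjusted p = 0.0335 from limma). The annotation has a same-strand protein-coding gene, *Gm20388*, overlapping *Cdt1*, so reads could be shared. *Orc2* also passed the adjusted p alone (-0.52, adjusted p = 0.0747 from limma). *Orc3* (-0.26, 95% interval -0.57 to 0.04) and *Orc6* (-0.28, -0.61 to 0.05) did not. *Orc5* had the largest positive log2 fold change of the 51, 0.18 (95% interval -0.13 to 0.49, adjusted p = 0.435 from limma), with 1843, 1465 and 1393 normalized counts in WT and 1926, 1596 and 1782 in hnRNPL-deficient libraries. The *Orc5* groups overlapped, as did those of *Orc4*, at 5980.1, 4633 and 4320.0 in WT and 5105, 4065 and 6117 in hnRNPL-deficient libraries. For *Orc4* the log2 fold change was 0.03 (95% interval -0.37 to 0.42), and its sign changed when some single libraries were left out.

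The 6 genes of the MCM hexamer were among the most abundant of the 51, and their log2 fold changes lay close together, from -0.59 to -0.40. *Mcm2* was at 9795, 13256 and 11385 normalized counts in WT and 9651, 11053 and 5977 in hnRNPL-deficient libraries. *Mcm3* was at 25886, 21768 and 21127 in WT and 18461, 16876 and 12530.4 in hnRNPL-deficient libraries. *Mcm4* had 23001, 19903 and 18175 and then 17401, 15648 and 11162. In each of these genes hnRNPL-deficient library 3 was the lowest of the 6 libraries, and for *Mcm2* hnRNPL-deficient library 2 lay within the WT range. *Mcm5* (chromosome 8, 75109569 to 75128439) was at 20307, 17115 and 17168 in WT and 13595, 13003 and 9967 in hnRNPL-deficient libraries. *Mcm6* had 24059.7, 19292 and 17897 and then 16317, 14902 and 11418. *Mcm7* had 12674, 11739.8 and 11040.5 and then 9582, 9354 and 6083. For *Mcm3* to *Mcm7* every hnRNPL-deficient value was below every WT value.

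*Mcm5* alone in the hexamer reached the call, narrowly (log2 fold change -0.59 ± 0.138 SE, limma adjusted p = 0.0306, against a minimum of 0.58 for a 1.5-fold change). *Mcm3* (-0.54), *Mcm6* (-0.53) and *Mcm7* (-0.53) passed the adjusted p with a smaller fold (adjusted p = 0.0604, 0.0701 and 0.0846 from limma). *Mcm4* (-0.48, adjusted p = 0.107) and *Mcm2* (-0.40, adjusted p = 0.275) did not. *Mcm8*, a relative of the hexamer genes that acts in recombination, was at -0.52 (adjusted p = 0.108 from limma). The 95% interval of *Mcm5* (-0.90 to -0.27) held the estimates of the other 5 genes of the hexamer. *Mcm7* holds the hosted microRNA genes *Mir25*, *Mir93* and *Mir106b* on its strand, whose reads it could share.

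Among the 8 genes for origin firing, *Mcm10*, *Gins1* and *Gins2* fell. *Gins1* (chromosome 2, 150905400 to 150931280), a subunit of the GINS complex of the active helicase, was at 1057, 779 and 746 normalized counts in WT and 598, 535 and 433 in hnRNPL-deficient libraries (log2 fold change -0.71 ± 0.183 SE, limma adjusted p = 0.0404). *Gins2* (chromosome 8, 120578633 to 120589304) was at 879, 935 and 831 in WT and 676, 646 and 411 in hnRNPL-deficient libraries (log2 fold change -0.64 ± 0.196 SE, limma adjusted p = 0.0713). Neither gene's groups overlapped. Their partner *Gins3* was at -0.18 (95% interval -0.49 to 0.13). *Gins4*, at 2561, 2002 and 1974 in WT and 2309, 2042 and 1693 in hnRNPL-deficient libraries, was at -0.11 (95% interval -0.46 to 0.23, adjusted p = 0.662 from limma), with hnRNPL-deficient libraries 1 and 2 inside the WT range.

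*Cdc7*, the kinase that phosphorylates MCM, was at -0.32 and *Dbf4*, its activator, at -0.50, and both passed the adjusted p alone (adjusted p = 0.0950 and 0.0892 from limma). *Cdc45*, which joins MCM and GINS in the active helicase, was at -0.50 (adjusted p = 0.131 from limma).

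None of the 9 polymerase and primase genes was called by limma, edgeR or DESeq2, although 5 had an unadjusted p under 0.05 from limma and all 9 had a lower mean. Such an unadjusted p, in either direction, was also reached by 4830 of the 17640 genes tested. The largest change was that of *Pold3*, an accessory subunit of polymerase δ, with 8577, 5789 and 5992 normalized counts in WT and 5029.7, 4339 and 4455 in hnRNPL-deficient libraries (log2 fold change -0.54 ± 0.156 SE, limma adjusted p = 0.0601). *Pold2*, another subunit of the same enzyme, was at 6013, 5776 and 5600.1 in WT and 4311, 4303 and 3771 in hnRNPL-deficient libraries (-0.49, adjusted p = 0.0154 from limma). Both had groups that did not overlap and a change under 1.5-fold. *Pold1*, the catalytic subunit, was at 2966, 4129 and 3735 in WT and 3159, 3592 and 1986 in hnRNPL-deficient libraries, so that only library 3 was below the WT range (-0.34, 95% interval -0.84 to 0.16).

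For polymerase ε, *Pole* (catalytic) was at -0.33 and *Pole2* at -0.34, neither past the adjusted p (adjusted p = 0.190 and 0.112 from limma). A same-strand protein-coding gene, *Gm49384*, overlaps *Pole2* in the annotation. Polymerase α and primase start each strand with a short RNA-DNA primer. *Pola1*, the catalytic subunit of polymerase α, had the smallest change of the 9, at 6622, 4596 and 4521 in WT and 5176, 4128 and 4199.7 in hnRNPL-deficient libraries (-0.21, 95% interval -0.58 to 0.17). *Prim1* (-0.23, -0.67 to 0.20), *Pola2* (-0.34, -0.65 to -0.03) and *Prim2* (-0.36, -0.69 to -0.04) did not pass the adjusted p either. Of the 51 genes, *Pold1* and *Lig1* lie within 20 Mb of the targeted *Hnrnpl* locus on chromosome 7, at 15.7 and 15.5 Mb from it, and neither was called.

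In the clamp and clamp loader group *Rfc2* fell and *Rfc5* passed the adjusted p alone. *Rfc5* was at 2082, 1868 and 1767 normalized counts in WT and 1468, 1475 and 1042 in hnRNPL-deficient libraries (-0.54, adjusted p = 0.0604 from limma). The large subunit *Rfc1* had the smallest change of the group, with 9191, 8734 and 8156 in WT and 7926, 7079 and 6295 in hnRNPL-deficient libraries (-0.30, 95% interval -0.55 to -0.05). *Rfc3* (-0.34) and *Rfc4* (-0.38) lay between them (adjusted p = 0.163 and 0.209 from limma). *Pcna*, the sliding clamp, was at 18847, 14881 and 14194 in WT and 13504, 12327 and 8645 in hnRNPL-deficient libraries. The *Pcna* groups did not overlap, but its log2 fold change of -0.49 did not pass (adjusted p = 0.120 from limma). Reads of *Pcna* could be shared with its pseudogene *Pcna-ps2*, listed at 4741, 2621 and 2878 in WT and 2734, 2079 and 2127 in hnRNPL-deficient libraries.

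None of the 5 genes for joining Okazaki fragments and binding single strands was called by limma, while 3 had an unadjusted p under 0.05, edgeR called 1 lower (*Rpa2*) and DESeq2 2 (*Rpa2* and *Fen1*). Of all 17640 genes tested, 4830 had such an unadjusted p. *Rpa2*, the middle subunit of the single-strand binding complex RPA, was at 2442, 2449 and 2193 normalized counts in WT and 1882, 1759.8 and 1218 in hnRNPL-deficient libraries (-0.57, adjusted p = 0.0619 from limma). *Rpa1*, the large subunit, was at 9363, 7963 and 7686 in WT and 9065, 7984 and 6145 in hnRNPL-deficient libraries (-0.12, 95% interval -0.47 to 0.22). *Rpa3*, the small one, had 1157, 916 and 849 and then 1047, 977 and 822 (-0.03, -0.39 to 0.32), and its sign turned with scaling to equal library totals (0.023). For both *Rpa1* and *Rpa3* the groups overlapped. The flap nuclease gene *Fen1* (-0.56, adjusted p = 0.141) and the ligase gene *Lig1* (-0.55, adjusted p = 0.104 from limma) had non-overlapping groups and missed the adjusted p.

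At the rear of the fork, *Chaf1b* and *Uhrf1* fell. *Chaf1b*, a subunit of the histone chaperone CAF-1 (chromosome 16, 93883901 to 93906115), was at 3924, 3036 and 3083 normalized counts in WT and 2282, 2094 and 1601 in hnRNPL-deficient libraries (log2 fold change -0.75 ± 0.160 SE, limma adjusted p = 0.0209). *Uhrf1*, which recruits the maintenance DNA methyltransferase to newly copied DNA (chromosome 17, 56303321 to 56323486), was the most abundant of the 51, at 35263, 26589.5 and 24962 in WT and 22482, 19249 and 14876 in hnRNPL-deficient libraries (log2 fold change -0.62 ± 0.180 SE, limma adjusted p = 0.0600). Neither gene's groups overlapped. *Dnmt1*, that methyltransferase, was at -0.35 (95% interval -0.72 to 0.03, adjusted p = 0.212 from limma), with groups that did not overlap. *Chaf1a*, the large CAF-1 subunit, was at -0.50 (adjusted p = 0.121).

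*Wdhd1*, which couples the helicase to polymerase α, passed the adjusted p alone (-0.51, adjusted p = 0.0383 from limma). The fork protection partners differed in their estimates, *Tipin* at -0.44 (95% interval -0.84 to -0.03) and *Timeless* at -0.14 (-0.55 to 0.26), with intervals that overlap. *Timeless* was at 1757, 2192 and 1949 in WT and 1887, 2181 and 1354 in hnRNPL-deficient libraries, where libraries 1 and 2 lay inside the WT range and library 3 below it.

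**Figure D2:**
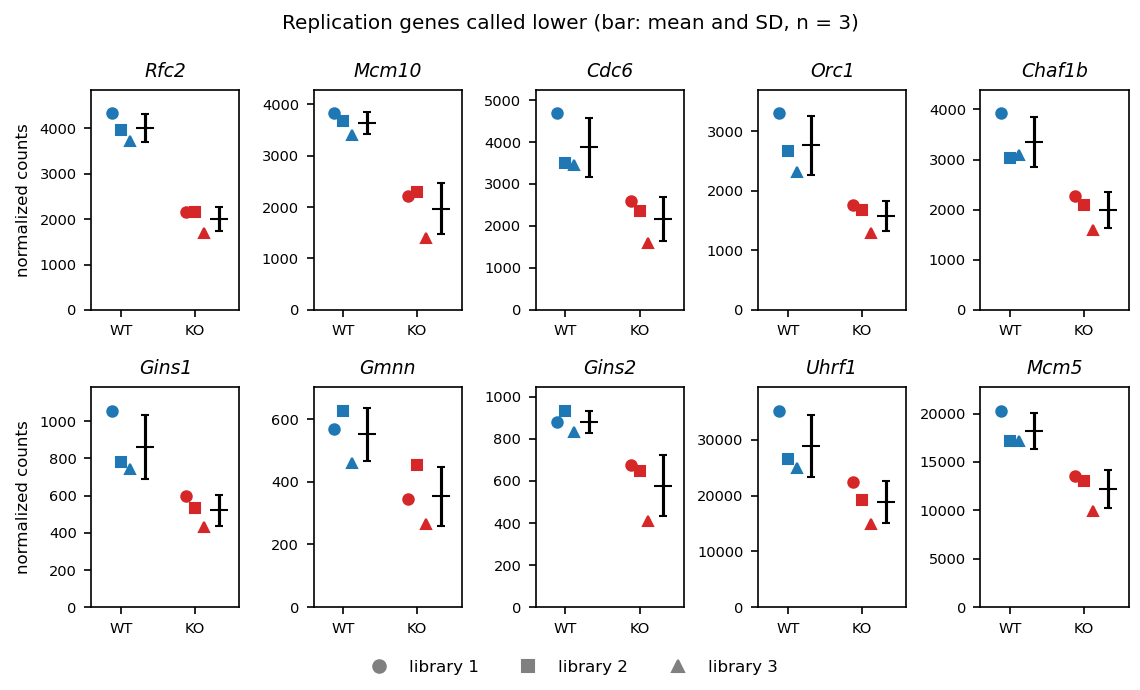
Normalized counts (vertical axis, from 0) of the 10 genes called lower, per library (circle, square and triangle for libraries 1, 2 and 3) in WT (blue) and hnRNPL-deficient (KO, red) cells, with mean and SD. The groups do not overlap in any panel, and the triangle of library 3 is the lowest point of all 10.

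Single libraries weighed on these calls. *Orc1*, *Cdc6*, *Mcm10*, *Rfc2* and *Chaf1b* were called lower whichever library was left out. *Gins1* was not called without WT library 1. *Mcm5* was not called without WT library 1 or without hnRNPL-deficient library 3. *Gins2* was not called without WT library 1, 2 or 3 or without hnRNPL-deficient library 3, *Uhrf1* not without WT library 1 or 2 or hnRNPL-deficient library 2 or 3, and *Gmnn* stayed called only without hnRNPL-deficient library 2. The number of genes called lower was 6 without WT library 1, 6 without hnRNPL-deficient library 3, 23 without hnRNPL-deficient library 1 and 15 without hnRNPL-deficient library 2, where 3.59%, 3.25%, 3.94% and 3.84% of all genes were called lower in the same order. *Mcm5* and *Uhrf1* were also not called with scaling to equal library totals.

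The 6 libraries ranked unevenly over the replication genes. WT library 1 was the highest of the 6 for 38 of 51 genes (74.5%), against 27.5% of all genes tested. The hnRNPL-deficient library 3 was the lowest for 44 of 51 (86.3%), against 25.6% of all genes. Relative to the WT mean of each gene, the median over the 51 genes was 0.18, -0.07 and -0.11 on the log2 scale in WT libraries 1, 2 and 3 and -0.25, -0.37 and -0.78 in hnRNPL-deficient libraries 1, 2 and 3, whereas the medians over all genes tested stayed between -0.02 and 0.02. In the hnRNPL-deficient group the library with the lowest replication genes also had the lowest *Hnrnpl* (1297 normalized counts, against 2178 and 1519) and the fewest reads (40395186), and the part of either in the result was not tested.

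The other hnRNPL-deficient libraries were lower as well, by less. Of 51 genes, 36 were below every WT value in hnRNPL-deficient library 1, 44 in library 2 and 48 in library 3, and for 5 (*Gins4*, *Pold1*, *Rpa1*, *Rpa3* and *Timeless*) library 3 was the only one below. Without hnRNPL-deficient library 3 the median log2 fold change was -0.32, and 46 of 51 genes had a lower mean. With WT library 1 and hnRNPL-deficient library 3 both left out, a comparison chosen after their values were seen, it was -0.23, 44 of 51 had a lower mean, and *Rfc2* and *Mcm10* were the 2 genes called lower. In that fit 4.05% of all genes were called lower, so 2 of 51 was near the share of all genes.

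**Figure D3:**
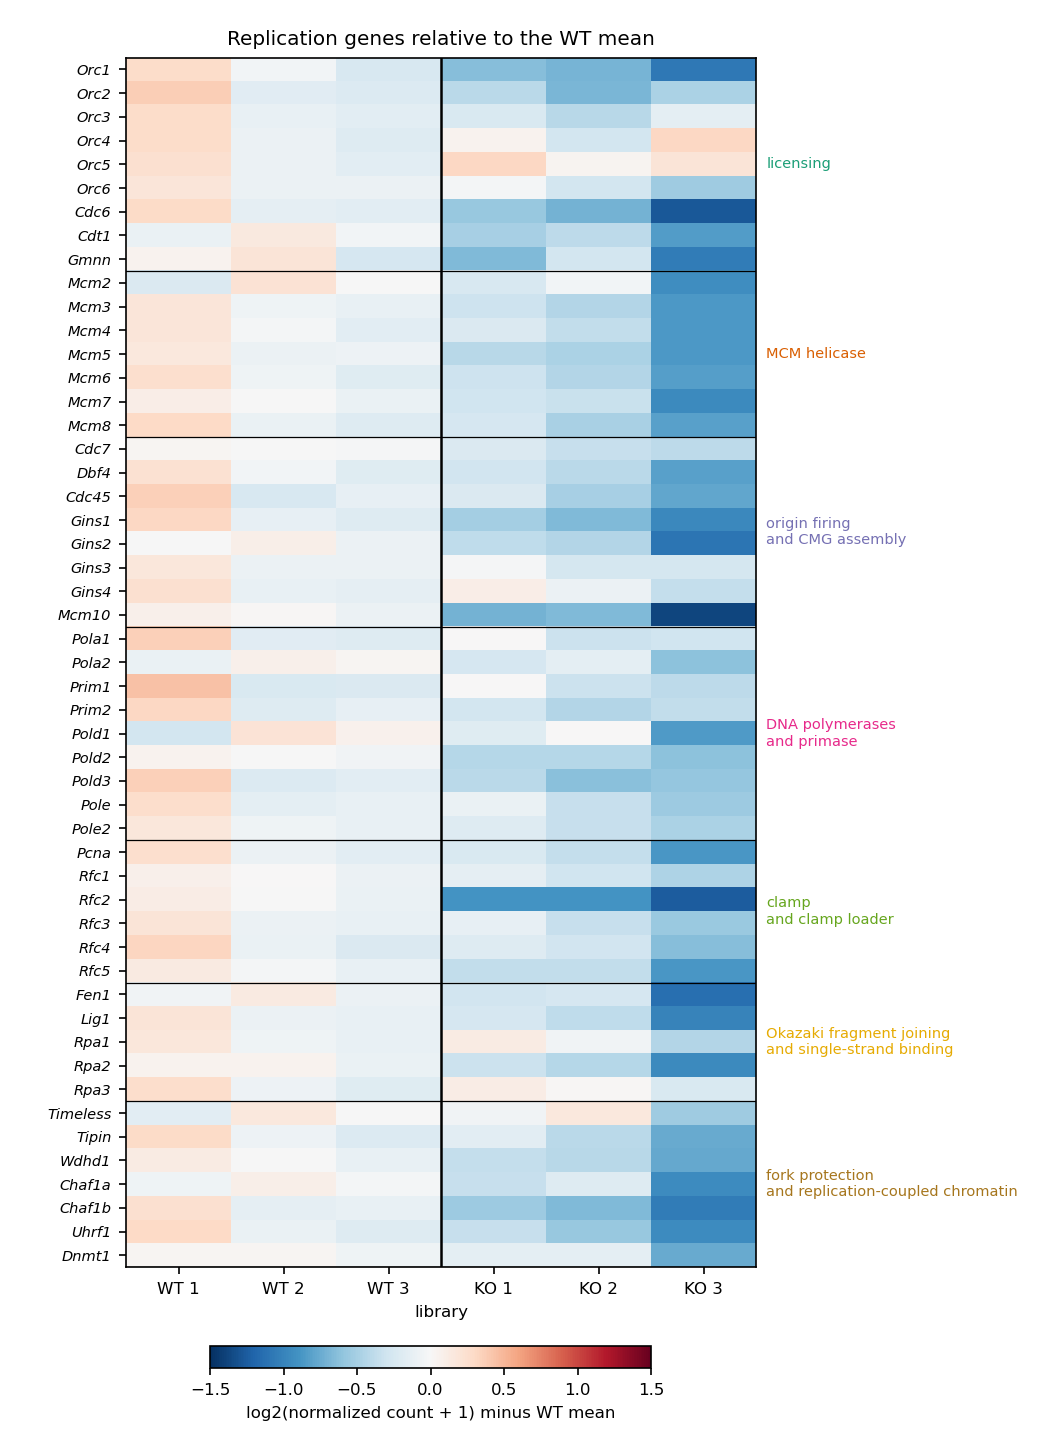
Each row is 1 of the 51 genes and each column a library; colour is log2(normalized count + 1) minus the mean of the 3 WT libraries, from -1.5 (blue) to 1.5 (red). The column of hnRNPL-deficient (KO) library 3 is the bluest, *Rfc2* is blue in all 3 KO columns, and *Orc4* and *Orc5* are not.

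Because many of these proteins work in complexes of fixed composition, each subunit was also compared with the other subunits in the same library, which does not depend on the scaling between libraries. For each subunit, the log2 of normalized counts per kb of exon was taken minus the mean over its complex. Because that mean includes the subunit itself, a fall of any subunit in this balance goes with a rise among its partners. Differences within a complex are therefore not separate observations. A difference in this balance between groups was tested with a two-sided exact permutation test, which with 3 against 3 cannot give a p under 0.1. For 28 subunits in 6 complexes the adjusted exact p was 0.215 at the lowest, so none passed, and the values are given as a description.

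For *Mcm2* to *Mcm7* the groups overlapped, with differences in balance (hnRNPL-deficient minus WT) from -0.08 (*Mcm5*) to 0.11 (*Mcm2*). They also overlapped for the 4 genes of polymerase α and primase, with differences from -0.08 (*Prim2*) to 0.08 (*Pola1*). In the clamp loader the groups overlapped for *Rfc4* and *Rfc5* but not for the other 3 subunits. *Rfc2* stood at -0.24, -0.16 and -0.17 against the mean of its complex in WT libraries and at -0.74, -0.64 and -0.68 in hnRNPL-deficient libraries, a difference of -0.50 (two-sided exact permutation p = 0.1, the smallest possible). The differences were 0.22 for *Rfc1* and 0.17 for *Rfc3*. As a plain ratio of normalized counts, *Rfc2* to *Rfc5* was 2.08, 2.13 and 2.11 in WT and 1.47, 1.46 and 1.62 in hnRNPL-deficient libraries, a pair chosen after its values were seen. This ratio was about as low in hnRNPL-deficient libraries 1 and 2 as in library 3.

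In ORC, *Orc1* stood at -0.10, -0.04 and -0.16 in WT and at -0.58, -0.42 and -0.89 in hnRNPL-deficient libraries, a difference of -0.53, and that of *Orc2* was -0.24. *Orc5* stood at -1.77, -1.73 and -1.73 in WT and at -1.28, -1.32 and -1.26 in hnRNPL-deficient libraries, a difference of 0.46, and that of *Orc4* was 0.30. None of these 4 subunits had overlapping groups (exact permutation p = 0.1 for each). The ratio of *Orc1* to *Orc5* was 1.79, 1.82 and 1.67 in WT and 0.916, 1.06 and 0.728 in hnRNPL-deficient libraries. 

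In GINS the difference in balance was -0.30 for *Gins1* and 0.30 for *Gins4*, neither with overlapping groups, and the ratio of *Gins1* to *Gins4* was 0.413, 0.389 and 0.378 in WT and 0.259, 0.262 and 0.256 in hnRNPL-deficient libraries. The ratio was therefore nearly the same in all 3 hnRNPL-deficient libraries, although the levels of *Gins1* were not. In RPA the difference was -0.33 for *Rpa2*, 0.12 for *Rpa1* and 0.21 for *Rpa3*, with no overlap of groups, and the ratio of *Rpa2* to *Rpa1* was 0.261, 0.308 and 0.285 in WT and 0.208, 0.220 and 0.198 in hnRNPL-deficient libraries. For comparison, the ratio of *Mcm5* to *Mcm4* was 0.883, 0.860 and 0.945 in WT and 0.781, 0.831 and 0.893 in hnRNPL-deficient libraries, with overlapping groups. The *Orc1*, *Gins1*, *Rpa2* and *Mcm5* pairs were likewise chosen after their values were seen.

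**Figure D4:**
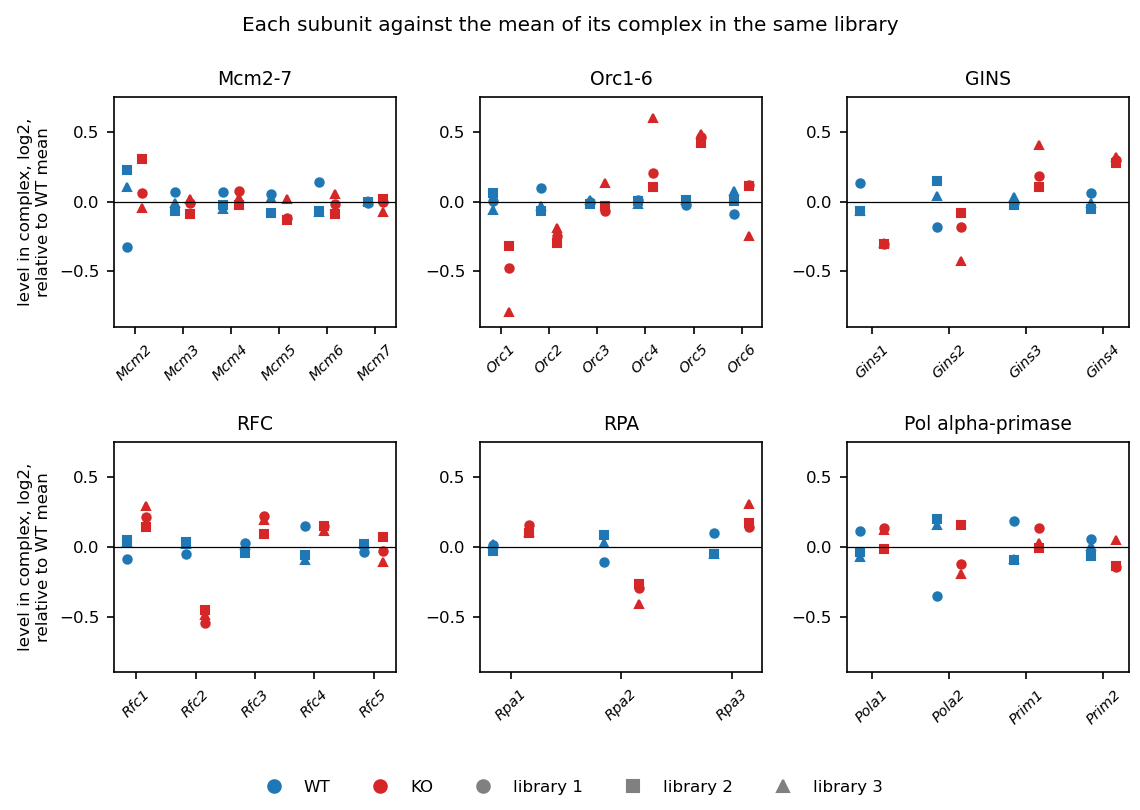
For 6 complexes, the level of each subunit against the mean of its complex in the same library (log2 of normalized counts per kb, vertical axis, with the WT mean of the subunit set to 0), for WT (blue) and hnRNPL-deficient (KO, red) libraries. *Rfc2*, *Orc1* and *Rpa2* sit below 0 in all 3 KO libraries and *Orc5* and *Gins4* above it, while *Mcm3* to *Mcm7* stay near 0.

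A second list of 32 genes with known parts in replication that are not among the 51 gave smaller numbers. It holds checkpoint and firing factors, alternative clamp loaders and histone chaperones. Of these, 30 had a lower mean, the median log2 fold change was -0.36, and 2 (6.25%) fell, beside the 4.08% of all genes. At any fold 10 passed the adjusted p, all of them lower, beside 7.97% of all genes. None was called higher by limma, edgeR or DESeq2, and 0 had a positive change at an unadjusted p under 0.05. The 2 that fell were *Dtl*, which marks CDT1 for destruction at PCNA, and *Pole3*, a small subunit of polymerase ε.

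*Dtl* was at 11076, 8378 and 8562 normalized counts in WT and 6797, 5923 and 5337 in hnRNPL-deficient libraries (log2 fold change -0.63 ± 0.139 SE, limma adjusted p = 0.0241). *Pole3* was at 3139, 2845 and 2705 in WT and 2150.2, 1953 and 1580.3 in hnRNPL-deficient libraries (log2 fold change -0.62 ± 0.134 SE, limma adjusted p = 0.0220). Neither gene's groups overlapped, and neither was called without WT library 1, without hnRNPL-deficient library 3 or with scaling to equal library totals. The largest positive change was that of *Chtf8*, at 10.4, 23.3 and 26.8 in WT and 16.2, 32.3 and 31.5 in hnRNPL-deficient libraries, a low level at which the groups overlapped (0.42, 95% interval -0.62 to 1.47).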

How the data were processed

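RNA-seq of GFP+ splenic B cells from 3 WT and 3 hnRNPL-deficient mice was analysed, grouped by sample title. Per the labels and the methods, the authors trimmed reads with fastp 0.23.1, aligned them with STAR 2.7.9a to mm10, counted them by strand with featureCounts on GENCODE and divided counts by DESeq2 (1.38.2) size factors. The deposited values, normalized counts, are such a signal. The authors' own comparison is in the same deposited file (mean signal, log2 fold change with its error, a test score and p-values) and was not used.

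Genes with a mean of at least 10 were tested with limma 3.58.1 (R 4.3.3) on log2(normalized count + 1), trend on, and Benjamini-Hochberg adjustment ran over 17640 genes. In every library 100% of values were whole multiples (tolerance 0.01) of what 1 read is worth. In hnRNPL-deficient library 2 that step is too close to 1 to tell recovered reads from rounding, so edgeR 4.0.16 and DESeq2 1.42.0 were run on the other 5 libraries, which was decided after the data were seen. Fits were tested on simulated data. Replicates of a group differed by more than counting noise.

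Coordinates and exon lengths are from an earlier GENCODE release than the study's, also on GRCm38. Values per library are given for every gene called, for *Mcm2* to *Mcm7* and for the largest change in each direction by role or list. *Cdt1*, *Orc4*, *Pold1*, *Pold2*, *Rfc5*, *Pcna* and *Rpa1* were added after their values were seen. The genes, lists and tests were chosen with earlier results of these data known. From the marker lists, 1 B cell and 1 erythroid gene are not reported here.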

Additional observations from a re-analysis of the deposited data

How the results depend on the processing

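All 51 genes were abundant (lowest mean 453 normalized counts), and the calls rested on 3 mice per genotype, with WT library 1 and hnRNPL-deficient library 3 as the edge libraries. Other pseudocounts and filters on low values left the 10 calls as they were, scaling to equal library totals or by quantiles kept 8 of them (without *Mcm5* and *Uhrf1*), and a fit with no mean-variance trend kept 7 (without *Gins2*, *Gmnn* and *Uhrf1*). The main fit did not pair the mice by replicate number, and whether the numbers mark pairs cannot be told from these values. Same-numbered libraries correlated at 0.429, 0.320 and 0.0663, and the others from -0.458 to 0.305. For each hnRNPL-deficient library the same-numbered WT library was the highest, narrowly for libraries 2 and 3. WT library 3, however, correlated more with hnRNPL-deficient library 2 (0.305) than with library 3. A fit with the replicate block called the same 10 replication genes lower. Of all genes it called 5.77% lower, against 4.08% in the main fit. With the block, genes that had missed the adjusted p passed it at under 1.5-fold. Among them were *Mcm4*, *Cdc45*, *Pole* and *Mcm2* (limma adjusted p = 0.00842, 0.0113, 0.0222 and 0.0924). *Orc3*, *Orc4*, *Orc5*, *Gins3*, *Gins4*, *Pola1*, *Prim1*, *Pold1*, *Rpa1*, *Rpa3* and *Timeless* did not pass with the block either. Which genes passed at any fold therefore depended on the pairing. The alternatives on 5 libraries and without both edge libraries were chosen after seeing the data. The cause of each change was not tested.

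Replication genes called lower ranged from 6 to 23 with 1 library left out, and were 2 without both edge libraries, 1 at an adjusted p under 0.05 and 2-fold, and 22 at any fold. Without both edge libraries 4.05% of all genes were called lower. Other replication genes called lower (2) ranged from 0 to 5 with 1 library left out, and were 0 with equal totals, 1 by quantiles, 0 without both edge libraries, 0 under the stricter rule and 10 at any fold. Over all genes, 719 were called lower (483 to 695 with 1 library left out, 216 under the stricter rule, 1406 at any fold) and 1284 higher (850 to 1124 with 1 library left out, 610 under the stricter rule). The median log2 fold change of the 51 genes ranged from -0.58 to -0.32 with 1 library left out and was -0.23 without both edge libraries. 

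The sign changed for some genes that were not called. With 1 library left out the log2 fold change ranged from -0.11 to 0.18 for *Orc4*, -0.22 to 0.0077 for *Gins4*, -0.25 to 0.035 for *Rpa1*, -0.12 to 0.10 for *Rpa3* and -0.29 to 0.051 for *Timeless*. Of the other replication genes, it ranged from -0.09 to 0.035 for *Mcm9*, -0.15 to 0.12 for *Pold4*, -0.21 to 0.057 for *Rnaseh2a*, -0.23 to 0.11 for *Rnaseh2c*, -0.56 to 0.061 for *Pclaf* and -0.16 to 0.076 for *Rbbp4*, named after their values were seen. Without both edge libraries it was 0.13 for *Gins4*, 0.020 for *Pola1*, 0.062 for *Prim1*, 0.12 for *Rpa1*, 0.20 for *Rpa3* and -0.12 for *Chtf8*, and with equal totals 0.023 for *Rpa3*.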

Other observations

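Per kb of exon, the most abundant of the 51 replication genes in WT were *Uhrf1* (6795 ± 1300.2 normalized counts per kb, SD, n = 3), *Pcna* (6656 ± 1047) and *Mcm3* (6111 ± 688), whose spreads overlap. The least abundant were *Gins2* (215 ± 12.7), *Dbf4* (237 ± 34.5) and *Orc5* (254 ± 39.2). Lengths are those of all annotated exons joined, so genes with rarely used exons are placed too low. In hnRNPL-deficient cells *Gins2* was at 141 ± 35.4 and *Orc5* at 287 ± 26.8 normalized counts per kb. All 51 genes together took 0.578%, 0.516% and 0.508% of the reads on genes in WT libraries 1, 2 and 3. For hnRNPL-deficient libraries 1, 2 and 3 these shares were 0.449%, 0.422% and 0.345%, so the groups did not overlap.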
